A study of Macaca mulatta with 38 samples.

Results

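6 of the 44423 barcodes counted in the blood of 1 rhesus macaque each averaged at least 10% of the reads of the 5 libraries labelled nRBC, taken here as nucleated red blood cells. Together they are called the expanded clone below, after their shared time course. The name rests on that course, since no file shows that the 6 tags sat in 1 cell. They were chosen by their nRBC values, so nRBC shares are given as a description with no test. The barcodes are numbered by mean read share over all 38 libraries, and the 6 are bc1 to bc6.

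All libraries are of peripheral blood of the macaque ZL34, a 4-year-old male. Its CD34+ blood stem and progenitor cells were collected after G-CSF and AMD1300, transduced at a multiplicity of infection of 25 with a barcoded lentivirus and returned after TBI, and the animal had weekly cidofovir at 5 mg/kg. Every library shares this history, and there is no untreated or untransduced sample. The cell types are T (9 libraries, days 32 to 553), B (8, days 32 to 553), Gr (7, days 32 to 553), Mono (7, days 32 to 553), nRBC (5, days 266 to 553), EOS (1, day 494) and CD34p (1, day 553). Each lineage and day has 1 library, so errors below are over days of 1 animal and not over animals. No markers were measured, so the cell type labels could not be checked against the data.

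A lentiviral barcode is a short tag that the vector inserts into the DNA of a stem cell and that all its descendants carry. Blood cells differ in how fast they are replaced: granulocytes, monocytes and red cell precursors are short-lived and mirror the current output of the marrow, while many T and B cells are long-lived and keep older clones in circulation. A stem cell that takes up several vector copies marks its descendants with several barcodes, which then move together. The read share of a barcode tracks its share of tagged DNA, and neither cell numbers nor untagged cells were measured.

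The 6 sequences are shown because their fixed starts differ while the stretch after the start has 1 length. Capitals mark the fixed start up to AACT and lower case the variable stretch that follows, up to the sequencing adapter, 5′ to 3′.
bc1: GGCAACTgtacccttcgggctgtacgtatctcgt
bc2: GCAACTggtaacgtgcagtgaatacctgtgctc
bc3: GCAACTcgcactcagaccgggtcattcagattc
bc4: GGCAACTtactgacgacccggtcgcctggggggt
bc5: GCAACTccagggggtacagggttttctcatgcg
bc6: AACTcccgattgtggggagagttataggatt
bc11: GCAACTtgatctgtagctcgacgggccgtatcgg
The last of these, bc11, is no member and is shown because it lay nearest below the limit of the rule.

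3 of the 6 members had a start that is rare in the table. GCAACT opened 98.5% of all 44423 barcodes and 3 of the members. GGCAACT opened 654 barcodes (1.47%), among them bc1 and bc4, and AACT opened only 3 barcodes in the table. The other two with AACT were each listed in 1 library, at no more than 0.00800% of reads, whereas bc6 was listed in 37 libraries and reached 18.0%. After the start all 6 members had 27 variable bases, as did 82.3% of the 43264 barcodes in which both the start and the adapter were found, whereas bc11 had 28. The members were unrelated in sequence, with 17 to 23 of the 27 bases differing between any pair. Their GC content ran from 48.1% to 70.4% (mean 56.8%), against 53.2% ± 9.79 over the 35615 barcodes of that length (SD). Within 4 edits of the variable stretch, no other barcode resembled a member, nor any of the 42 most abundant other barcodes that could be read this way. Over the whole table only single substitutions were searched for, and no pair of sequences differed by 1. Whether similar sequences had been merged or dropped beforehand is not stated, so the search cannot tell if copies of a member arose.

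The nRBC values that chose the members left a wide gap at the limit. The lowest member, bc6, averaged 14.3% of nRBC reads and bc11, the highest of the rest, 1.36%. Single nRBC libraries had bc11 at 0.0463% to 6.09%, the highest at day 309 and the next at 0.483% at day 266. After bc11 came bc10 at 0.0488%. In nRBC, bc1 took 21.7%, 15.9%, 19.4%, 19.3% and 19.2% of the reads in the libraries of days 266, 309, 393, 494 and 553. bc6 held 18.0%, 8.06%, 14.2%, 15.6% and 15.4% on the same days, so the library of day 309 was low for bc6.

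Among T, B, Gr and Mono, the clone passed 10% of reads first in Mono and last in T. The first nRBC library, at day 266, was already above 10%, so nRBC has no place in this order. The clone's share is the summed reads of the 6 members over all reads of kept barcodes. A cell that carries all 6 tags counts 6 times in it, so it is a share of tags and not of cells. A day of crossing was read between neighbouring libraries, linear in log2 odds. In Mono the clone's share crossed 10% at about day 177, between the libraries of days 119 and 187. In Gr the crossing lay at about day 252 and in B at about day 264, both between days 187 and 266. In T it lay at about day 327, between days 266 and 365. These are first crossings. B was under 10% again at days 365, 393 and 494 (7.24%, 3.44% and 5.29%) and T at days 393 and 494 (2.92% and 3.98%). Gr and B share a pair of sampling days, so their order rests on the interpolation.

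At 1% the order was not the same. Gr held 2.90% at day 119 and 0.960% at day 187, against 0.952% and 14.6% in Mono. Of T, B, Gr and Mono, Gr was thus the first to pass 1%, at about day 88, and was under it again at day 187. T passed 1% at about day 204 and B at about day 208, both between days 187 and 266. 50% was passed in Mono at about day 279 and in Gr at about day 307, and 90% at about days 358 and 360, all between the libraries of days 266 and 365. Neither T nor B reached 50% by day 553. The first nRBC library, at day 266, already held 99.3%, when the share was 15.6% in Gr, 41.1% in Mono, 5.40% in T and 10.6% in B. The series has no nRBC library from before day 266, so how the clone's nRBC share came about was not seen.

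Growth was measured as the slope of the log2 odds, the log2 of clone reads over all other kept reads, where a slope of 1 per 100 days doubles the odds in 100 days. In Mono the slope was 3.79 ± 0.24 per 100 days (SE, n = 7 days), a doubling of the odds every 26.4 days. In Gr it was 3.33 ± 0.38 (n = 7), or 30.0 days. In B it was 1.87 ± 0.37 (n = 8), or 53.4 days, and in T 1.71 ± 0.34 (n = 9), or 58.3 days. Single days lay off these lines by 1.15 (Mono) to 1.82 (Gr) on the log2 scale, the SD of the residuals. A member listed at 0 was given 50 reads. All 6 members were at 0 in T and 3 of them in B at day 32, and no other library had a member at 0. The slopes of summed shares carry no p, since the members were chosen.

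Up to day 365, in fits that include day 32, the slopes in T and B were nearer to those in Mono and Gr. They were 2.90 ± 0.39 in T and 2.81 ± 0.57 in B, against 3.72 ± 0.28 in Mono, and 3.57 ± 0.76 in Gr (SE, n = 5 days each). At day 32 the T odds rest wholly, and the B odds in part, on the reads given to members at 0. In T the step from day 32 to day 119 was 5.25 log2 units of odds per 100 days. From there to day 365 the T steps were 0.854, 4.05 and 1.57, against 6.11, 2.56 and 4.02 in Mono. Between days 119 and 365 the log2 odds went from −7.92 to −2.57 in T and from −9.19 to −3.68 in B. They went from −6.70 to 3.46 in Mono and from −5.07 to 3.46 in Gr, a larger rise than in T or B. The nearness of T and B to Mono and Gr is thus not seen between these days alone. No slope to day 365 was fitted without day 32. Above 90% the odds rest on a small remainder, and in some libraries bc11 made up most of it. In Gr the other kept barcodes held 8.32% of reads at day 365 and 5.92% at day 494, of which bc11 alone held 7.95% and 5.86%. In Mono at day 365 bc11 held 6.47% of reads out of 8.32%. The odds of the clone there also move with the share of bc11. The other kept barcodes made up 0.0810% of the Mono library of day 494, with 12 barcodes listed in all, and reads of barcodes under the count limit of the table are missing from that remainder. The late odds are therefore upper values, and the slope to day 365 is the one that does not use them, apart from day 365 itself.

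The speed changed from step to step. In Mono the steepest step before 90% was from day 119 to day 187, at 6.11 log2 units of odds per 100 days. In Gr it was from day 266 to day 365, at 5.96, and it followed a step of −2.39 per 100 days between days 119 and 187. All 6 members were lower in Gr at day 187 than at day 119, at 0.277 (bc3) to 0.427 times (bc6) their earlier share. In B the step from day 187 to 266 was 6.11 per 100 days, with the 6 members 17.1 (bc1) to 35.5 times (bc3) higher. Each step rests on 2 libraries and was not tested.

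The leading member bc1 rose with time in all 4 lineages. In Mono it held 0.0650%, 0.201%, 2.72%, 7.49%, 16.3%, 19.2% and 18.6% of reads at days 32, 119, 187, 266, 365, 494 and 553. In Gr it held 0.0358%, 0.678%, 0.195%, 3.30%, 16.7%, 17.8% and 20.8% on the same days. Both lineages ended near the level of bc1 in nRBC.

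In B bc1 was at 0 at day 32 and then held 0.0356%, 0.100%, 1.71%, 1.29%, 0.580%, 1.05% and 7.73% at days 119, 187, 266, 365, 393, 494 and 553. In T it was at 0 at day 32 and then held 0.0631%, 0.0951%, 1.03%, 2.57%, 0.516%, 0.729%, 2.48% and 9.41% at days 119, 187, 266, 365, 393, 494, 536 and 553. In both, the last library was the highest, and the days 393 and 494 lay under day 266.

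The log2 odds of bc1 had a slope of 1.68 ± 0.33 per 100 days in T (SE, n = 9 days), with a two-sided exact permutation p = 0.000670 and 0.00268 after adjustment. The slope in B was 1.88 ± 0.38 over 8 days, for which the exact permutation test gave p = 0.00161 and an adjusted 0.00322. Gr had 1.80 ± 0.33 over 7 days, with p = 0.00397 in the exact permutation test, adjusted to 0.00476. For Mono the slope was 1.64 ± 0.34, and the exact permutation p = 0.00476 stayed the same on adjustment. The adjustment covers the 4 lineages, the permutation runs over all orders of the days, and bc1 passed in each lineage without any 1 day. Neighbouring days of 1 animal are not independent, so p says only how unlike a random order the days were, and that the clone's share grew in these lineages was known when the test was chosen.

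Taken singly, the members had nearly the same slope in every lineage, unlike their sum. On log2 percent per 100 days, T gave 1.48 (bc5) to 1.70 (bc2) and B gave 1.68 (bc4) to 1.93 (bc3). Gr gave 1.72 (bc1) to 1.92 (bc2) and Mono 1.53 (bc5) to 1.75 (bc4). A single member of 6 cannot pass a share near its part of the clone, so its curve flattens in Gr and Mono where the odds of the sum go on growing. Slopes of log2 percent of the sum showed the same, at 1.62 ± 0.32 in T, 1.78 ± 0.35 in B, 1.79 ± 0.34 in Gr and 1.63 ± 0.37 in Mono (SE). The faster growth in Gr and Mono is thus a statement on the odds scale only.

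Across all barcodes, edgeR's quasi-likelihood test called none of the 6 members in any lineage. The fit gave each lineage its own intercept and slope and tested the 415 barcodes that reached 0.05% in 2 or more of its libraries, all 6 members among them. The 6 slopes had a median of 1.58 in T, 1.62 in B, 1.78 in Gr and 1.51 in Mono (log2 share per 100 days), against medians over the 415 barcodes of 0.36, 0.36, −3.18 and −2.65 in the same lineages. The medians over all barcodes in Gr and Mono moved with the setting, to −0.68 and −0.31 with each 0 at 100 reads and to −1.74 and −1.62 without day 553, and they lay at about 0 with no filter. Those of the members there stayed between 1.08 and 2.49 in every fit on this scale of days. Adjusted over the 415, p lay between 0.334 and 0.581 in T and between 0.420 and 0.547 in B. It lay between 0.113 and 0.137 in Gr and between 0.207 and 0.233 in Mono. The share of all barcodes called higher was 0% in T, 0% in B, 0.482% in Gr and 0% in Mono, so the test made few such calls for any barcode. Called lower were 0% in T, 0% in B, 2.89% in Gr and 5.06% in Mono.

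At an unadjusted p under 0.05, edgeR had 6 of 6 members higher in T, in B and in Gr and 0 of 6 in Mono, beside 27, 7, 13 and 2 of all 415 barcodes. DESeq2 called 5 of 6 in T and 6 of 6 in B, Gr and Mono, beside 8.19%, 1.45%, 3.13% and 2.89% of all barcodes called higher. It called 0.723%, 6.75%, 80.2% and 72% of all barcodes lower, so in Gr and Mono it called most barcodes. In Gr edgeR called 6 of 6 higher without day 32, beside 1.98% of the 405 barcodes tested, and 6 of 6 without day 266, beside 2.22% of 360. These fits called 76% and 63.3% of all barcodes lower. edgeR treats every library as an independent draw, although all come from serial bleeds of 1 animal.

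T and B trailed Mono on each of the 7 shared days, and the distance was widest at day 494. At days 119, 187, 266, 365, 494 and 553 the clone held 0.413%, 0.616%, 5.40%, 14.4%, 3.98% and 48.9% of T reads, against 0.952%, 14.6%, 41.1%, 91.7%, 99.9% and 99.8% of Mono reads. At day 32 it was listed at 0 in T, where the counts allow up to 0.0349%, against 0.256% in Mono. Over the 7 days the log2 odds minus those of Mono had a mean of −6.26 in T (SD 4.55) and −6.49 in B (SD 4.40). In Gr the mean difference to Mono was −1.72 (SD 2.68), with Gr lower on 5 of 7 days.

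Read along the time axis, T lagged Mono by a growing number of days until day 536. The share of T at day 119 was that of Mono 55.5 days earlier, read between Mono libraries. For the T libraries of days 187, 266, 365 and 393 the lag was 96.9, 105, 178 and 247 days, and for those of days 494, 536 and 553 it was 340.5, 352 and 276 days. B held less at day 119 than Mono at day 32, a lag of over 87 days. Its libraries of days 187, 266, 365, 393, 494 and 553 lagged by 123, 87.7, 197, 243, 333 and 287 days. Lags from low shares lean on the first Mono libraries, and all of them on interpolation.

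Each of the 6 members was lower in T than in Mono on 7 of 7 days, and each was lower in B than in Mono on 7 of 7 days. The members rise and fall together, so these are not 6 separate observations. How many of all barcodes were lower on every shared day was not counted. bc1 averaged 1.98% ± 3.39 in T and 9.23% ± 8.64 in Mono (SD, n = 7 days). With day as a block, edgeR gave the 6 members log2 differences of −3.58 to −3.39 in T against Mono, with adjusted p of 0.132 to 0.170 over 183 barcodes. In B against Mono they were −3.79 to −2.91, with adjusted p of 0.0539 to 0.0996 over 176 barcodes. So 0 of 6 passed in either. The share of barcodes called lower was 0% in both, and called higher 29% in T and 1.14% in B. The median over all barcodes was 6.47 in T and 3.79 in B. With each 0 at 100 reads it was 2.50 and 1.90, and in B it was −0.65 without day 365 and −1.54 without day 494.

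At an unadjusted p under 0.05 edgeR had 0 of 6 members lower in T and 6 of 6 in B, beside 0 and 8 of all barcodes. DESeq2 called 6 of 6 lower in both, beside 3.83% of all barcodes called lower in T and 9.66% in B. It called 46.4% of all barcodes higher in T and 31.8% in B. Without day 32, where members in T and B were at 0, edgeR called 5 of 6 lower in T, beside 2.78% of 180 barcodes. It called 6 of 6 lower in B, beside 3.55% of 169. Called higher in these fits were 45% of all barcodes in T and 8.28% in B. Gr against Mono gave −0.85 to −0.34, with adjusted p of 0.998 for all 6 by edgeR, with 0 members under an unadjusted p of 0.05 and 0 called by DESeq2. Over the 155 barcodes tested there, edgeR called 0% lower and 0% higher, with 0 at an unadjusted p under 0.05 and 0 by DESeq2.

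The slope of the members in T did not differ detectably from that in Mono on the scale of their own shares. The 6 differences of slope, T minus Mono, were −0.11 to 0.14 log2 units per 100 days with standard errors of 1.01 to 1.08, and adjusted p of 0.995 to 1 by edgeR. In B minus Mono they were 0.06 to 0.20 with standard errors of 1.12 to 1.23. The median slope difference of the members, 0.07 in T and 0.13 in B, was −0.43 and −0.46 in DESeq2 and 0.66 and 0.60 with day as a block. Without day 553 it was −0.49 and −0.03. A difference of 1 log2 unit per 100 days in either direction lies inside these errors. 0 of 6 had an unadjusted p under 0.05, and DESeq2 called 0 of 6. Of all 415 barcodes in T minus Mono, edgeR called 0.723% higher and 0% lower, and DESeq2 289 higher and 2 lower, while 109 were higher and 0 lower before adjustment (p under 0.05). In B minus Mono edgeR called 0% either way, and DESeq2 called 221 higher and 4 lower, while 39 were higher and 0 lower before adjustment. On the odds of the sum, the difference to Mono had a slope of −1.91 ± 0.62 per 100 days in T and −1.88 ± 0.58 in B (SE, n = 7 days). Up to day 365 the slope was −0.82 ± 0.64 in T and −0.91 ± 0.73 in B (n = 5). These fits include day 32, where members at 0 in T and B were given reads.

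T and B changed places from day to day. The clone's share was higher in T on 4 of the 8 shared days, and the log2 odds of T minus B had a mean of 0.17 (SD 0.81). edgeR gave the members −0.27 (bc6) to 0.17 in T against B, with standard errors of 0.51 to 0.98 and adjusted p of 0.807 to 0.902 over 317 barcodes. 0 of 6 passed, with 0 at an unadjusted p under 0.05 and 0 called by DESeq2. In the same fit 18% of all barcodes were called higher and 7.57% lower in T, with 99 and 40 at an unadjusted p under 0.05, while DESeq2 called 102 higher and 111 lower. The median of the members was −0.57 with TMM factors and 0.17 without day 32, so no direction can be given.

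Both lymphoid lineages were lower at day 393 than at day 365 and highest at day 553. At day 393 all 6 members in T stood at 0.190 (bc4) to 0.252 times (bc6) their share of day 365. In B all 6 were lower at day 365 than at day 266 and lower again at day 393, at 0.418 (bc2) to 0.809 times (bc6) the share of day 365. From day 536 to day 553 the members in T were 2.56 (bc6) to 4.75 times (bc3) higher, and from day 494 to 553 those in B were 6.98 (bc6) to 9.11 times (bc4) higher. The column sums of T and B were the lowest of all at day 494, with 766039 and 789584 reads, and were 3464834 and 3365960 at day 553. There is no Gr or Mono library of day 393 or 536, so whether they were lower too was not tested.

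The proportions of the 6 members varied most where the clone was rare, with bc6 as an exception. Each was compared with the geometric mean of the 6 on a log2 scale in the 36 libraries that listed all of them. The SD over these libraries ran from 0.18 (bc3) to 0.28 (bc5), against 0.0183 to 0.0223 from read counting alone. 5 of these libraries are nRBC, which chose the members. In the 13 libraries where the clone held at least 90%, the median SD was 0.12, and 0.08 in the 8 of them that are not nRBC. In the 15 with 1% to 90% it was 0.14, and in the 8 under 1% it was 0.38, with no nRBC among them. For bc6 the SD was 0.27 at 90% or more (0.19 without nRBC), 0.24 at 1% to 90% and 0.24 under 1%. No test was made of these spreads.

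bc1 made up 19.4% ± 2.36 of the clone's reads over the 36 libraries (SD) and bc6 14.8%, the ends of the range. bc1 was the largest member in 21 of 36 libraries and bc2 in 12. bc5 was the smallest in 19 and bc6 in 9. In CD34p at day 553 the largest member was 1.36 times the smallest, in EOS at day 494 1.24 times and in Mono at day 553 1.26 times. At day 32 the ratio was 3.60 in Mono, between bc1 and bc4, and 2.55 in Gr, between bc1 and bc2. In T at day 119 it was 3.17, between bc5 and bc2.

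At day 365 bc2 was the largest and bc6 the smallest in all 4 lineages sampled. The log2 ratio of bc6 to the geometric mean was −0.35 in T, −0.79 in B, −0.16 in Gr and −0.63 in Mono, and that of bc2 was 0.33, 0.40, 0.17 and 0.40. The nRBC library of day 309 had the same ends, with bc6 at −0.89 and bc2 at 0.43. By day 494 bc6 was back at 15.2% of Mono reads and 15.6% of nRBC reads. The labels do not name PCR or sequencing runs, so no such batch was tested.

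The composition of the clone overlapped between lineages. bc1 averaged 17.7% ± 1.56 of the clone's reads in T (n = 8), 19.2% ± 2.71 in B (n = 7), 21.1% ± 2.40 in Gr (n = 7), 19.8% ± 2.66 in Mono (n = 7) and 19.4% ± 1.71 in nRBC (SD, n = 5 libraries). bc6 averaged 14.8% ± 1.84, 14.9% ± 2.90, 15.8% ± 1.66, 13.7% ± 2.60 and 14.5% ± 3.52 in the same order. No test was made of these means.

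Of the 409 other barcodes that passed the same filter over the 38 libraries, bc11 was the most like the clone, with a Pearson r of 0.65 to its summed share on log2(percent + 0.01). The members among themselves had r of 0.993 to 0.998. Both values include the nRBC libraries that chose the members, and over the 33 other libraries they were 0.68 for bc11 and 0.994 to 0.998 among the members. The next 4, bc799, bc96, bc176 and bc1069, had r of 0.07, 0.02, 0.02 and 0.01 over all 38. Each r is a description over libraries of 1 animal, with no test.

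bc11 was listed at 0 in every lineage at days 32 and 119 and was first listed at day 187, at 1.23% in Mono, 0.0473% in B and 0.0150% in T, with 0 in Gr. Where it was listed, its level relative to the clone ranged from 0.0464% (nRBC at day 494) to 11.4% (B at day 187). At day 187 it was also at 8.40% in Mono and 2.43% in T. At day 266 it stood at 8.17% of the clone's level in T, 10.3% in B and 8.22% in Mono, against 0.474% in Gr and 0.486% in nRBC. At day 365 it stood at 7.18% in T, 8.23% in B, 8.67% in Gr and 7.06% in Mono.

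At day 309, sampled in nRBC only, bc11 was at 6.53% of the clone's level. At day 393 bc11 was at 3.90% of the clone's level in T and 3.96% in B, but at 0.0548% in nRBC. At day 494 it was at 6.23% of the clone's level in Gr, 4.78% in T and 5.12% in B, but at 0.0525% in Mono, 0.0727% in EOS and 0.0464% in nRBC. In T at day 536 it was at 1.46%. At day 553 it was at 0.0733% to 0.151% in T, B, Gr, Mono, nRBC and CD34p, the lowest in T and B among the days on which it was listed. The proportions of the members moved over the same days too, but not the same way in every lineage. In T the log2 ratio of bc5 to the geometric mean was −0.23 at day 494 and −0.61 at day 553. The largest member in T was 1.38 and 2.0 times the smallest on these days. In B the ratio of bc5 was −0.31 and −0.14, and the largest member was 1.479 and 1.241 times the smallest. The largest was 1.281 and 1.504 times the smallest in Gr, 1.361 and 1.257 times in Mono, and 1.349 and 1.302 times in nRBC. The SD of the log2 ratio of bc11 to the members was 2.98 over the 29 libraries that listed it, against at most 0.28 for a member over the 36, nRBC included in both.

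The single libraries of other cells were almost wholly of the clone. In EOS at day 494 it held 99.7% of reads (95% interval 99.66% to 99.67%) and in CD34p at day 553 99.9% (99.85% to 99.85%). The intervals are exact Clopper-Pearson intervals for counting error only. bc1 to bc6 held 18.4%, 17.7%, 17.3%, 15.5%, 14.9% and 15.8% of EOS reads, and 19.5%, 17.8%, 17.6%, 15.2%, 15.4% and 14.3% of CD34p reads. On the same days the clone took 3.98% and 48.9% of T reads, and 5.29% and 41.4% of B reads. With 1 library each, EOS and CD34p allow no test.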

How the data were processed

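The authors deposited 1 table of read counts per barcode. It holds 44423 sequences of 50 bases in 38 libraries, with column sums of 766039 to 3832849 reads. Per the labels' protocols, 28 PCR cycles retrieved the barcodes from 200 ng of DNA. How reads were called, merged or dropped is not stated in the labels or the file. The lowest count above 0 is 101, and a 0 was therefore read as at most 100 reads, an inferred limit.

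Shares were percent of column sums. Members of the clone had a mean of at least 10% over nRBC. They, the tests and the alternatives were chosen with earlier results of these data known. edgeR 4.0.16 (R 4.3.3) ran on the counts with column sums as library sizes, on barcodes that reached 0.05% in 2 libraries of the fit, with Benjamini-Hochberg adjustment and a threshold of 0.05. Standard errors were the log2 change over the root of F. On simulated counts with 200 changed barcodes of 415, slopes of 2 in T were recovered in 100%, with 7 false calls. These counts were independent draws with a fixed spread shared by all barcodes and no trend in the unchanged ones. The recovery therefore does not give the power in the real libraries, where the members' slopes in T had standard errors of 0.62 to 0.65. Level contrasts, which pair libraries by day, used the day as a block because the labels give the same days. DESeq2 1.42.0, TMM, other filters, zeros at 100 reads, log2 of day and leaving out each day were alternatives. DESeq2 estimated its own size factors from the counts in place of column sums. Named barcodes were the members, the highest barcode outside the rule and the 5 most correlated with the clone. Exact permutation tests used Python 3.11.15. PCR reads are not independent molecules, so intervals cover counting error only.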

Additional observations from a re-analysis of the deposited data

Results flagged for a closer look

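Each value was set against the others of its lineage, and it is given here where its gap to the nearest of them was large for the number of libraries (Dixon's test at 95%). In all, 28 sets of values in T, B, Gr and Mono were tested and 8 such values found, while chance gives about 1 in 20 sets, and the members are not independent of each other. The nRBC values chose the members and were not tested.

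In T the clone's share of 48.9% at day 553 stood apart from the other days, and so did its 41.4% in B at day 553.

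The other 6 are member ratios in early libraries, where the clone held under 1% of reads. In Mono at day 32 the log2 ratio was 0.78 for bc1, −1.07 for bc4 and 0.70 for bc5. In Gr at day 32 it was −0.70 for bc2. In T at day 119 it was −0.72 for bc2 and 0.95 for bc5.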

How the results depend on the processing

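The direction of bc1 and its call held in all 4 lineages under every alternative run. A day of crossing lies between the libraries around it by construction, and read linear in percent the 1% crossing in Gr was at day 59.1, against day 88.0. The mean differences to Mono moved by less than their SD. The clone's slope of 1.71 in T was 2.30 with members at 0 given 1 read, 1.31 without libraries with a member at 0 and 2.90 up to day 365, and 1.31 to 1.88 with each day left out in turn. In B it was 2.81 up to day 365. On log2 percent it was 1.79 in Gr and 1.63 in Mono, where leaving out days gave 3.55 to 4.09 odds units. The median SD of member ratios, 0.24, was 0.19 over libraries with at least 1000 reads of each member, and 0.34 relative to the largest. Without nRBC, an alternative chosen after seeing the data, it was 0.23.

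edgeR's 0 of 6 members called depended on the setting. For slopes, DESeq2 called 5 in T, 6 in B, 6 in Gr and 6 in Mono. Each 0 at 100 reads gave 6 in T, beside 10.4% of all barcodes called higher and 2.17% lower, and 6 in Gr, beside 1.69% higher and 14% lower. No filter gave 5 in T (0.0135% of 44420), and log2 of day 4 in T (1.20%) and 2 in B (0.482%). Against Mono, DESeq2 called 6 lower in T and 6 in B. Each 0 at 100 reads gave 6 in T and 6 in B, beside 3.28% and 3.41% of all barcodes called lower and 59.6% and 48.3% higher. With each day left out, 0 to 6 passed for the slope in Gr, 0 to 5 for T against Mono and 0 to 6 for B against Mono. No member was called in Gr against Mono, T against B or any slope difference under the alternatives run. With day as a replicate block the slope differences called 0 of 6, and without it the level contrasts called 0 of 6. TMM factors moved the median slope of all barcodes in T to 0.20, against 0.36 with column sums, and the median level of T against B to −0.45, against 0.12. Depth limits T and B at day 494, where a 0 may hide 0.0131% of T reads.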
